A study of Homo sapiens with 30 samples.

Results

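The 53 genes described here encode the channels and receptors through which neurons receive and shape signals. They are 7 NMDA receptor subunits, 9 AMPA, kainate and delta receptor subunits, 7 metabotropic glutamate receptors, 10 GABA-A and glycine receptor subunits, 9 nicotinic acetylcholine receptor subunits, 6 Kv1 potassium channels and 5 serotonin and dopamine receptors. The genes were chosen by name with earlier results of these data known, so that their shares describe these genes alone. Each was matched to its GENCODE annotation on hg19, and they make up 53 of 20090 protein-coding genes on chromosomes 1 to 22 and X. All 53 lie on autosomes, and they are therefore set beside the 19222 autosomal protein-coding genes. The repressive histone marks were profiled by ChIP-seq in HEK293T, a human embryonic kidney cell line, 48 h after transfection of antisense oligonucleotides (ASOs), which lower the amount of a chosen RNA. H3K27me3 was profiled with the negative control oligonucleotide ASOXNC23 (NC), with 1 ASO against LINC00641 (ΔLINC00641) and with 1 ASO against SETD5-AS1 (ΔSETD5-AS1). H3K9me3 was profiled with NC and with a mix of ASOs against LINC00662 (ΔLINC00662). Each ChIP group held 3 samples and had 3 input samples, and the replicates of a group were merged before peaks were called. A group is therefore a single peak list, no value has an error between replicates, and no test between groups was possible.

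Ionotropic receptors open an ion channel when a transmitter binds, metabotropic and monoamine receptors act through G proteins, and Kv1 channels open on depolarisation and set how readily an axon fires. H3K27me3 is laid down by the Polycomb repressive complex PRC2 and is known for marking developmental and tissue-specific genes that are silent in a cell, often at CpG-rich starts. H3K9me3 is laid down by other methyltransferases and is known from heterochromatin, repeats and zinc-finger gene clusters. Peak lists hold no RNA measurement, so that expression of these genes was not analysed here. In bulk chromatin, a mark carried by fewer cells and a weaker mark in each cell cannot be told apart.

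The H3K27me3 lists held 102921 peaks (77.8 Mb) in NC, 86099 (64.1 Mb) in ΔLINC00641 and 98401 (69.8 Mb) in ΔSETD5-AS1. The H3K9me3 lists held 84170 (54.7 Mb) in NC and 60273 (32.8 Mb) in ΔLINC00662. Averaged over the genome, a base was covered by a number of ChIP fragments (the genome-wide level) that lay between 3.5 and 4.43. Of 10 autosomal genes that are expressed in nearly all cells, 0 carried a promoter peak in any of the 3 H3K27me3 lists (Wilson 95% interval 0 to 27.8%). Over all autosomal protein-coding genes 6.87 to 7.5% did, so that 10 genes are too few to check the lists. Within the spans of the 53 genes, with 5 kb added on each side, 968 H3K27me3 peaks were found in NC against 699 in ΔLINC00641 and 800 in ΔSETD5-AS1. The corresponding H3K9me3 numbers were 205 in NC and 161 in ΔLINC00662. The whole list of each knockdown was also shorter than that of its NC, so that lower numbers were not particular to these genes.

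The genes with the strongest H3K27me3 peak at their start in NC, ranked by the deposited −log10 q, were GRIA2, GRIK3, GABRB2 and GRIN2A. A window of each peak is shown because these were the strongest peaks at a start. Each window holds 200 bases of hg19, is read 5′ to 3′ on the strand of the gene, and is the window of the peak nearest to its summit that touches no annotated exon. CG dinucleotides are in capitals. The windows lie at chr4:158142960-158143159, plus strand, at chr1:37500738-37500937, minus strand, at chr5:160975234-160975433, minus strand and at chr16:10276286-10276485, minus strand.
GRIA2: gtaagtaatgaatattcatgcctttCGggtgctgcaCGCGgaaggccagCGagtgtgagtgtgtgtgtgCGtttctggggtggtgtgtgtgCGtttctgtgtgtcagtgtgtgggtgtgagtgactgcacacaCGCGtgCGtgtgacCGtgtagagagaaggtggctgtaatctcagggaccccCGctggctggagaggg
GRIK3: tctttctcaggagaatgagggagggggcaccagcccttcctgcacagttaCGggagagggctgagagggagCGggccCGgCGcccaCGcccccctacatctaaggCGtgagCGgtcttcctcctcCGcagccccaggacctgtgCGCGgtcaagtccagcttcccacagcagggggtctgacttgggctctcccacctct
GABRB2: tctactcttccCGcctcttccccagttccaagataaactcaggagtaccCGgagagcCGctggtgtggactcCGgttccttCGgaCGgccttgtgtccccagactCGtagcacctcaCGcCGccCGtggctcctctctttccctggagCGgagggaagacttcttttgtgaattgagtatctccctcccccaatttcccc
GRIN2A: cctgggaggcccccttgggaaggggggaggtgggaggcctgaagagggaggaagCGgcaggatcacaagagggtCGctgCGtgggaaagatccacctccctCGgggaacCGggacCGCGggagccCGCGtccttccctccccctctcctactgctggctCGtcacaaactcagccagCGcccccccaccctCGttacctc
The windows held 11, 10, 11 and 12 CG dinucleotides at a GC content of 57.0, 66.0, 58.5 and 68.5%. The summit itself lies inside the window of GRIK3 and outside the other three windows. The window of GRIA2 lies downstream of its start, at positions 1080 to 1279, and that of GABRB2 upstream, at −1702 to −1503, so that both lie more than 1 kb from the start. The windows of GRIK3, at −821 to −622, and GRIN2A, at −200 to −1, also lie upstream.

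A promoter peak was a peak that touched the region within 1 kb of the start of the canonical transcript. In NC, 32 of the 53 genes (60.4%, Wilson 95% interval 46.9 to 72.4%, counting error only) carried an H3K27me3 promoter peak, against 7.09% of all autosomal protein-coding genes. In ΔLINC00641 34 genes carried one (7.5% of all autosomal genes), and in ΔSETD5-AS1 31 genes did (6.87% of all). The promoter peak was present in all 3 lists at 29 genes and in at least 1 list at 36. Shares over all autosomal genes were computed per list only, so that counts over several lists have no background here. A further 8 genes carried a peak elsewhere in the span or flanks but never at the start, namely GRIN2D, GRIK1, GRIK4, GRIK5, GABRB1, GABRG3, GLRA3 and CHRNB4. The only H3K27me3 peak of CHRNB4 in NC and in ΔSETD5-AS1 is that of CHRNA3, and the 2 peaks of GABRB1 in each list are also peaks of GABRA4, since the flanks of these neighbours overlap. Any peak in span or flanks, shared ones included, was found at 41 genes in each list, 38 of them in all 3, against 14.6% of all autosomal genes for NC, 14.6% for ΔLINC00641 and 14.9% for ΔSETD5-AS1. The remaining 9 genes, GRIN2C, GRID1, GABRA5, CHRNA5, CHRNA6, CHRNA7, CHRNB3, HTR2A and DRD1, had no H3K27me3 peak in any list, a share not computed over all autosomal genes.

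By family, the promoter peak was found in NC at 5 of 7 NMDA receptor subunits, 5 of 9 AMPA, kainate and delta subunits, 5 of 7 metabotropic glutamate receptors, 6 of 10 GABA-A and glycine subunits, 5 of 6 Kv1 channels and 3 of 5 serotonin and dopamine receptors. The nicotinic subunits had the lowest share, 3 of 9, with an interval from 12.1 to 64.6%. With so few genes in a family, its interval overlapped that of every other family. The 53 genes are long, with a median of 88.3 kb against 27.6 kb for all autosomal genes. All autosomal genes were split into 5 equal classes by span length. In the longest class, from 90500 bp upward, 17 of 26 of the genes carried the promoter peak in NC, against 11.5% of all genes of that class. In the shortest class, up to 7550 bp, 5 of 6 did, against 9.57%. Any peak in span or flanks, which is more likely in a long gene, was found in NC at 23 of the 26 in the longest class, against 25.1% of that class. In the shortest class it was found at 5 of 6, against 15.7%.

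**Figure D1:**
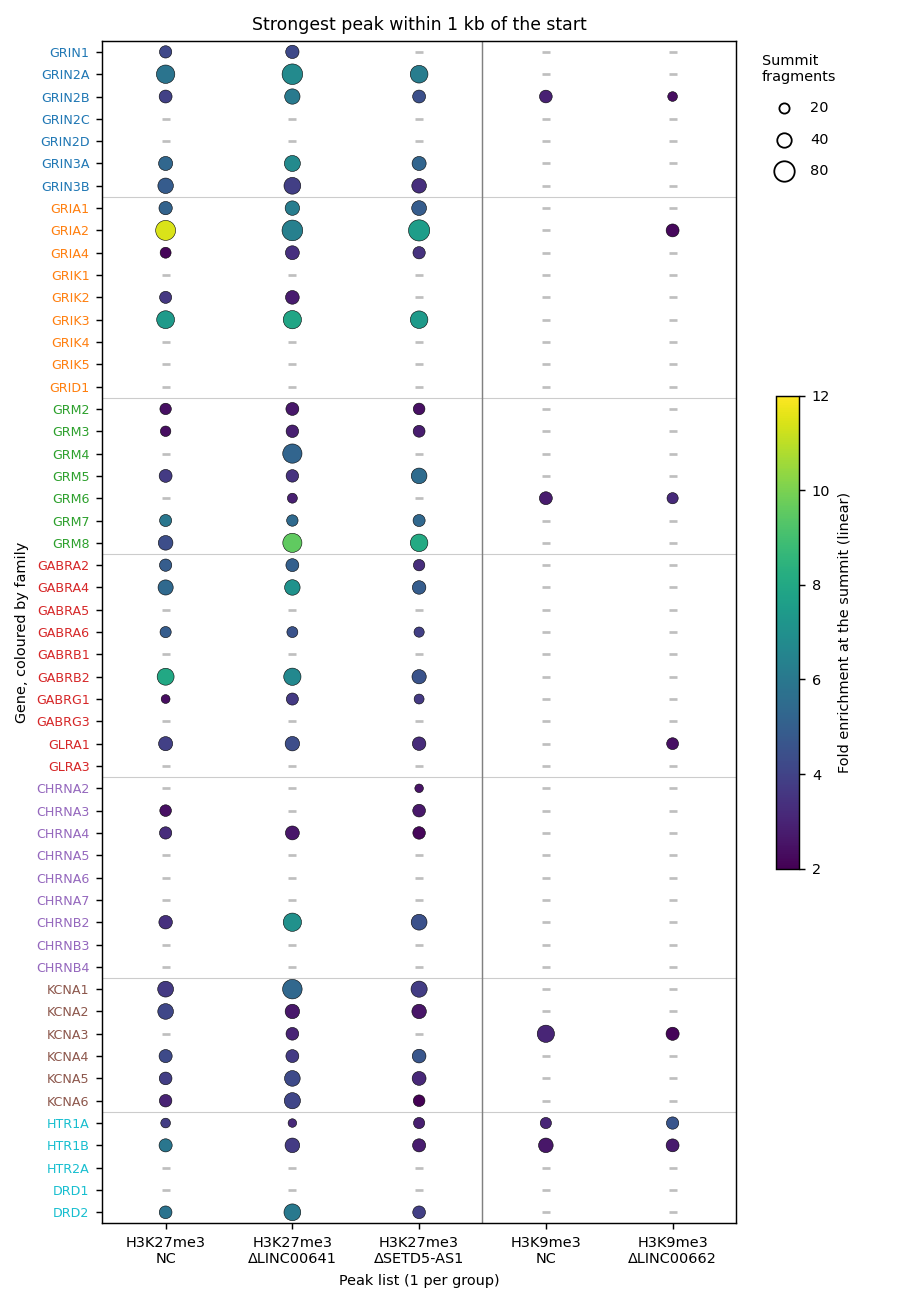
Strongest peak within 1 kb of the start for each of the 53 genes (rows, coloured by family) in each of the 5 peak lists (columns), where the colour gives the fold enrichment on a linear scale, the area of a point is proportional to the fragments at the summit and a grey dash means no peak. GRIA2 in NC has the highest fold enrichment, 11.4, and the H3K9me3 columns hold 5 and 7 points against 32, 34 and 31 in the H3K27me3 columns.

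At the starts of the 53 genes the H3K27me3 peaks were centred slightly downstream. In NC the share of the genes with a peak was highest at 0.6 kb after the start, where 22 genes (41.5%) were covered, while over all autosomal genes the highest share was 3.91%, at 0.8 kb. In ΔLINC00641 the highest share was 47.2% of the 53 genes at 0.8 kb, and in ΔSETD5-AS1 it was 43.4% at 1 kb. The promoter peaks had a median width of 1020 bp in NC, with a range from 270 to 4929 bp, against a median of 894 bp over all autosomal promoter peaks. Their median fold enrichment over input was 4.13 (2.15 to 11.4), against 3.71 over all autosomal promoter peaks, and their median summit held 32 fragments, against 29.

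**Figure D2:**
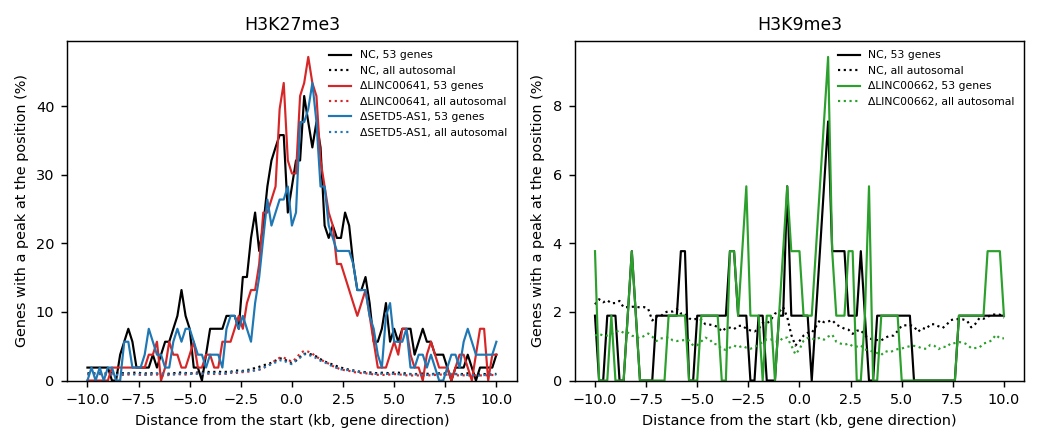
Percent of genes that have a peak at each position from 10 kb before to 10 kb after the start (x axis, kb in the direction of the gene), for the 53 genes (solid lines) and all autosomal protein-coding genes (dotted lines), with H3K27me3 on the left and H3K9me3 on the right. In the 3 H3K27me3 lists the solid lines reach 41.5, 47.2 and 43.4% within 1 kb of the start, and the H3K9me3 lines of the 53 genes, each step of which is a single gene or a few, stay below 10%.

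NMDA receptors are glutamate-gated calcium channels built from the obligatory subunit GRIN1 with GRIN2 or GRIN3 subunits. GRIN2A (chr16:9847261-10276785), the subunit that increases in the maturing forebrain, had a promoter fold enrichment of 5.86 in NC against 6.75 in ΔLINC00641 and 6.20 in ΔSETD5-AS1. Its summits held 65 fragments (Poisson 95% interval 50.2 to 82.8, counting error only), 81 (64.3 to 101) and 60 (45.8 to 77.2), so that the intervals of the 3 lists overlapped. GRIN2B, the subunit of the early brain, carried a weaker promoter peak in the 3 lists, with 32, 45 and 32 summit fragments. GRIN3A and GRIN3B, which lower calcium entry, also kept their promoter peaks, with 38, 49 and 38 and with 46, 54 and 41 fragments. GRIN1 itself had a peak with 29 fragments (19.4 to 41.6) in NC and 34 (23.5 to 47.5) in ΔLINC00641 but none in ΔSETD5-AS1, where the nearest peak lay 27676 bp from its start. GRIN2C and GRIN2D, the subunits of cerebellum and of interneurons, had no promoter peak in any list.

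AMPA receptors carry most fast excitatory transmission, and GRIA2 is the subunit that, after RNA editing, makes them impermeable to calcium. GRIA2 (chr4:158125334-158308298) had the highest promoter fold enrichment of the 53 genes in NC, 11.4, with 7.53 in ΔSETD5-AS1 and 6.30 in ΔLINC00641. Its summit fragments did not fall with the fold enrichment, with 76 (59.9 to 95.1) in NC against 82 (65.2 to 102) in ΔLINC00641 and 86 (68.8 to 106) in ΔSETD5-AS1, so that the fold enrichment was higher in NC through a lower local input level at its summit, which lay at another position. GRIA1 (chr5:152869175-153193429) had 34, 40 and 42 summit fragments at its promoter in this order of the lists, and GRIA4 had 23, 37 and 29. Of the kainate receptor subunits, GRIK3 (chr1:37261128-37500116) was strongly marked in the 3 lists, at a fold enrichment of 7.39, 7.86 and 7.43 with 61, 64 and 59 fragments. GRIK2 had 28 fragments in NC and 36 in ΔLINC00641, and no promoter peak in ΔSETD5-AS1. GRIK1, GRIK4, GRIK5 and the delta receptor gene GRID1 had none in any list.

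Metabotropic glutamate receptors are coupled to G proteins, with GRM5 in the group that raises calcium and the other six in groups that lower cAMP. GRM8, a presynaptic receptor, had a promoter fold enrichment of 4.37 in NC against 9.55 in ΔLINC00641 and 8.08 in ΔSETD5-AS1. Its fragments were 41 (29.4 to 55.6), 70 (54.6 to 88.4) and 59 (44.9 to 76.1), so that NC was lowest but its interval touched both others. GRM5 had 32, 30 and 47 fragments in NC, ΔLINC00641 and ΔSETD5-AS1, and GRM7 had 28, 25 and 28. GRM2 and GRM3 carried weak promoter peaks in the 3 lists, at fold enrichments from 2.39 to 2.86. GRM4 and GRM6 had no promoter peak in NC or ΔSETD5-AS1 but had one in ΔLINC00641, where all 7 receptors of this family carried one.

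GABA-A receptors are chloride channels of fast inhibition, and glycine receptors have the same role mainly in the spinal cord and brainstem. GABRB2 (chr5:160715436-160976050), a beta subunit of the most common receptor type, had a promoter fold enrichment of 7.99 in NC against 6.67 in ΔLINC00641 and 4.57 in ΔSETD5-AS1. Its fragments were 55 (41.4 to 71.6), 57 (43.2 to 73.9) and 39 (27.7 to 53.3), with overlapping intervals. GABRA4 had 44, 46 and 35 fragments, GABRA2 had 29, 32 and 25, and GABRA6, a subunit of cerebellar granule cells, had 24, 23 and 20. The weakest of the family, GABRG1, rested on 15 fragments (8.4 to 24.7) in NC. GLRA1, the adult glycine receptor subunit, had 38, 40 and 35 fragments at its promoter. GABRA5, GABRB1, GABRG3 and GLRA3 had no promoter peak in the 3 lists.

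Nicotinic receptors are acetylcholine-gated channels. CHRNB2 (chr1:154540254-154552489), which forms the main brain receptor together with CHRNA4, was the only one of the family with a broad domain at the start, 3132 bp wide in NC against 2725 bp in ΔLINC00641 and 2749 bp in ΔSETD5-AS1. Its summit held 35 fragments (24.4 to 48.7) in NC against 64 (49.3 to 81.7) in ΔLINC00641 and 48 (35.4 to 63.6) in ΔSETD5-AS1. The ΔLINC00641 interval lay above that of NC, which was so at 1 of the 31 genes with a promoter peak in both lists and at 1.4% of all autosomal genes with one in both. CHRNA4 carried a narrow peak in the 3 lists, with 29, 37 and 30 fragments. CHRNA3, a subunit of autonomic ganglia, had 26 fragments in NC and 31 in ΔSETD5-AS1 and no peak in ΔLINC00641. CHRNA2 had a promoter peak in ΔSETD5-AS1 only of the 3 lists, and CHRNA5, CHRNA6, CHRNA7, CHRNB3 and CHRNB4 had none.

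Kv1 genes mostly have a coding sequence in a single exon, and 3 of them, KCNA1, KCNA5 and KCNA6, lie near each other on chromosome 12. KCNA1 (chr12:5019071-5027422), an axonal channel, had 48 fragments (35.4 to 63.6) in NC against 73 (57.2 to 91.8) in ΔLINC00641 and 50 (37.1 to 65.9) in ΔSETD5-AS1. KCNA5 had 31, 47 and 37 fragments, and KCNA6 had 30, 50 and 26, so that ΔLINC00641 was highest at each of these neighbours, with intervals that overlapped those of NC. At KCNA6 the strongest promoter peak of either knockdown did not overlap that of NC, so that different peaks were compared there. KCNA2 and KCNA4 kept their promoter peaks, with 47, 40 and 40 and with 33, 32 and 36 fragments. KCNA3, a channel best known from T cells, had a promoter peak in ΔLINC00641 only.

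Of the serotonin and dopamine receptors, the autoreceptors HTR1A and HTR1B and the dopamine receptor DRD2 carried the promoter peak in the 3 lists. HTR1B (chr6:78170641-78173208) had a fold enrichment of 5.94 in NC against 3.73 in ΔLINC00641 and 2.79 in ΔSETD5-AS1, with 33, 41 and 33 fragments, so that the fragments did not follow the fold. DRD2 had 31, 54 and 31 fragments and HTR1A had 18, 14 and 24. HTR2A and DRD1 had no peak of either mark in any list.

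The extent of the mark over the genes also varied. In NC 16 of the 53 genes had at least 10% of span and flanks covered by H3K27me3 peaks, against 3.7% of all autosomal genes. This was so of 12 genes in ΔLINC00641 (3.31% of all) and 12 in ΔSETD5-AS1 (3.32% of all). Of the 16, 9 had peaks beyond 5 kb of the start in NC. The other 7, GRIN3B, CHRNB2, KCNA1, KCNA4, KCNA5, HTR1A and HTR1B, are short genes with nothing covered beyond it. GRIA1 was covered over 44.5% of its length by 144 peaks in NC, HTR1B over 31.4% by 4 peaks, GRIK3 over 23.5% by 54 peaks and GABRB2 over 22.9% by 88 peaks. In the GRIA1 gene, cut into 10 equal segments, coverage was lowest in segment 1, 32.2%, and highest in segment 7, 59.0%. In GABRB2 it was highest in segment 1, 36.6%. In all, 14 of the 32 genes with a promoter peak in NC had nothing covered beyond 5 kb of the start, among them GABRA2, CHRNB2, KCNA1 and HTR1B. A short gene has little length beyond that distance, and the share over all autosomal genes with a promoter peak was not computed.

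The surroundings of the genes also differed. Coverage of the gene was above that of the 500 kb on each side at 27 of the 32 genes with a promoter peak in NC. These genes were picked by a peak at the start, which by itself favours the gene over its surroundings. The share over all autosomal genes with a promoter peak was not computed, so that the count is not a trait of these genes. CHRNB2 was covered over 17.1% in surroundings covered over 0.466%, HTR1B over 31.4% in surroundings at 0.301%, and DRD2 over 6.92% in surroundings at 0.27%. In contrast, GABRB2 at 22.9% and GABRA6 at 20.6% lay in surroundings covered over 21.3% and 19.0%, and GLRA1 at 10.7% lay in surroundings at 16.1%. The spans of GABRA6 and GABRB2 overlap by 1.98 kb and those of CHRNA3 and CHRNA5 by 2.22 kb. GABRA6 and GABRB2 share 6 of their H3K27me3 peaks in NC, while CHRNA3 and CHRNA5 share none. KCNA6 lies within GALNT8 and GRIK1 overlaps BACH1, so that peaks there cannot be assigned to either gene alone.

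To see how the marked genes fared upon depletion of the lncRNAs, promoter peaks were followed between lists. Of the 32 genes with an H3K27me3 promoter peak in NC, 31 had one in ΔLINC00641 (96.9%, Wilson 84.3 to 99.4%), where 84.0% of all autosomal genes did. In ΔSETD5-AS1 30 of 32 (93.8%, 79.9 to 98.3%) had one, against 79.9% of all. For strong NC promoter peaks only (−log10 q from 5 upward) the shares were 25 of 25 against 95.3% in ΔLINC00641 and 23 of 25 against 93.0% in ΔSETD5-AS1. With the same limit on both lists they were 24 of 25 against 85.6% in ΔLINC00641 and 19 of 25 against 75.2% in ΔSETD5-AS1. A promoter peak absent from NC was found at 3 of 21 genes in ΔLINC00641 (1.66% of all autosomal genes without one in NC) and at 1 of 21 in ΔSETD5-AS1 (1.3% of all). These comparisons share the NC list.

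The changes themselves were few. In ΔLINC00641 the promoter peak of CHRNA3 was absent. It had been a weak peak in NC, with 26 fragments (17 to 38.1), a fold enrichment of 2.41 and a −log10 q of 2.86. The NC peaks of GRIA4, GRM3 and GRM2 had a lower −log10 q, 1.93, 2.29 and 2.72, and these genes had a promoter peak in ΔLINC00641. The peaks new in ΔLINC00641 were at GRM4, with 71 fragments (55.5 to 89.6) at a fold enrichment of 5.24, at KCNA3, with 31 (21.1 to 44), and at GRM6, with 19 (11.4 to 29.7). For GRM4 a peak was also present in NC, 1028 bp from the start and so just outside the promoter region, and for KCNA3 the nearest NC peak lay at 2421 bp. The count of GRM4 as new therefore depends on the limit of 1 kb. In ΔSETD5-AS1 GRIN1 and GRIK2 had no promoter peak, and a peak near GRIK2 lay 1231 bp from its start. The peak new in ΔSETD5-AS1, at CHRNA2, held 14 fragments (7.65 to 23.5). The window of the GRM4 peak (chr6:34112544-34112743, minus strand) is shown because this peak is the strongest of those counted as new in ΔLINC00641, with CG in capitals. It lies 1121 to 1320 bases after the start, outside the promoter region, which only the edge of the peak touches.
GRM4: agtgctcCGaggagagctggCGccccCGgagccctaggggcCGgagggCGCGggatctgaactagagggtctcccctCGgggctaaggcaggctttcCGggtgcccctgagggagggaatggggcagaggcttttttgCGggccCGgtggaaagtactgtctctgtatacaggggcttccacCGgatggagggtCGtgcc
The GRM4 window held 12 CG dinucleotides at a GC content of 66.5%.

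The kept promoter peaks were higher at some genes and lower at others. The median log2 ratio of fold enrichment between ΔLINC00641 and NC was 0.09 over 31 genes, with 19 higher and 12 lower and a range from −0.86 (GRIA2) to 1.13 (GRM8). Over all 1145 autosomal genes with a promoter peak in both lists the median was 0.12. For ΔSETD5-AS1 the median was −0.10 over 30 genes, with 13 higher and 17 lower and a range from −1.09 (HTR1B) to 0.89 (GRM8), and −0.12 over all 1089 genes. The strongest promoter peaks compared overlapped each other at 25 of the 31 genes in ΔLINC00641 and at 26 of the 30 in ΔSETD5-AS1. At the remaining genes different peaks were compared. These were GRIK2, GRIK3, KCNA4, KCNA6, HTR1A and DRD2 in ΔLINC00641, and GRIA4, GRIK3, GABRB2 and KCNA6 in ΔSETD5-AS1. By the summit fragments, CHRNB2 in ΔLINC00641 was the only gene of the 53 whose 95% interval lay apart from that of NC, and none of the 30 did so in ΔSETD5-AS1, where 0.0918% of all autosomal genes with both peaks lay lower.

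The covered length decreased more than the number of marked starts. Peaks covered 703 kb (6.1%) of the 11500 kb of spans and flanks in NC against 511 kb (4.43%) in ΔLINC00641 and 592 kb (5.14%) in ΔSETD5-AS1. Coverage was lower than in NC at 26 of 43 genes covered in either list for ΔLINC00641, against 55.5% of all autosomal genes, and at 27 of 42 for ΔSETD5-AS1, against 54.2%. Among the 16 genes with at least 10% covered in NC, 13 were lower in ΔLINC00641 and 12 in ΔSETD5-AS1, where 72.5% and 69.8% of all 712 such autosomal genes were lower. Of the 9 with peaks beyond 5 kb of the start, 8 and 7 were lower, and of the 7 short genes 5 and 5. The median ratio of coverage to NC was 0.764 over the 16 genes and 0.838 over the 712 for ΔLINC00641, and 0.828 and 0.877 for ΔSETD5-AS1. These shares and ratios were close to those over all genes.

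In single genes, GABRB2 was covered over 22.9% in NC against 13.7% in ΔLINC00641 and 16.1% in ΔSETD5-AS1. GABRA6, its neighbour, was covered over 20.6, 10.2 and 12.4%, and GRIA2 over 17.5, 8.53 and 14.1%. GRIN3A was at 17.5, 10.4 and 12.7%, and GRIN3B at 11.8, 4.01 and 5.28%. In each of these 5 genes NC was highest and ΔLINC00641 lowest. Some genes were covered over more of their length in a knockdown. HTR1B was at 31.4% in NC against 38.1% in ΔLINC00641 and 26.0% in ΔSETD5-AS1, and HTR1A at 15.7, 13.7 and 21.6%. KCNA6 was at 7.05, 14.7 and 4.55%, and GRIK3 at 23.5, 24.5 and 26.4%. GRIA1, the most covered gene in NC, was at 44.5, 36.0 and 43.8%.

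**Figure D3:**
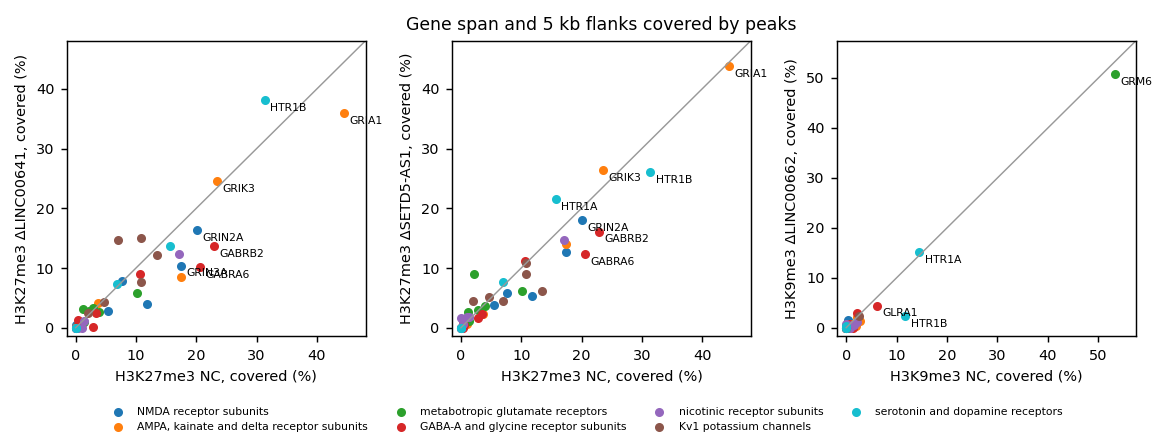
Percent of each gene span and its 5 kb flanks covered by peaks in NC (x axis) and in a knockdown (y axis), for H3K27me3 with ΔLINC00641 (left) and ΔSETD5-AS1 (middle) and for H3K9me3 with ΔLINC00662 (right), where each point is a gene coloured by family and the line marks equal coverage. GABRB2 and GABRA6 lie below the line in both H3K27me3 panels, HTR1B lies above it in the left and below it in the middle panel, and GRM6 stands alone in the right panel at 53.2 and 50.7%.

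Along the gene the differences from NC varied between genes. Cut into 10 segments, GABRB2 and GABRA6 were below NC in 10 segments each in ΔLINC00641 and in 9 and 8 in ΔSETD5-AS1. GRIA1 was below NC in 9 segments in ΔLINC00641 but in 3 in ΔSETD5-AS1, and GRIK3 in 5 and 3. In GABRB2 segment 1 was covered over 36.6% in NC and 27.4% in ΔLINC00641, and segment 9 over 28.7 and 10.4%. In GRIA2 segment 1 was at 23.5% in NC and 27% in ΔLINC00641, while segment 2 was at 32.1 and 10.5%. GRIA1 was at 32.2 and 32.7% in segment 1 and at 52.5 and 34.0% in segment 10. GABRA6 was at 50.6% in NC and 25.5% in ΔLINC00641 in segment 1. Segments are counted from the 5′ end of the annotated gene, which for GABRA6 lies at chr5:160974069, beside the start of GABRB2 at 160973731. The canonical start of GABRA6 lies further on, at 161112727, so that its segment 1 does not describe its start. GRIK3 was higher in ΔLINC00641 in segment 3, at 37.7% against 24.2% in NC.

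**Figure D4:**
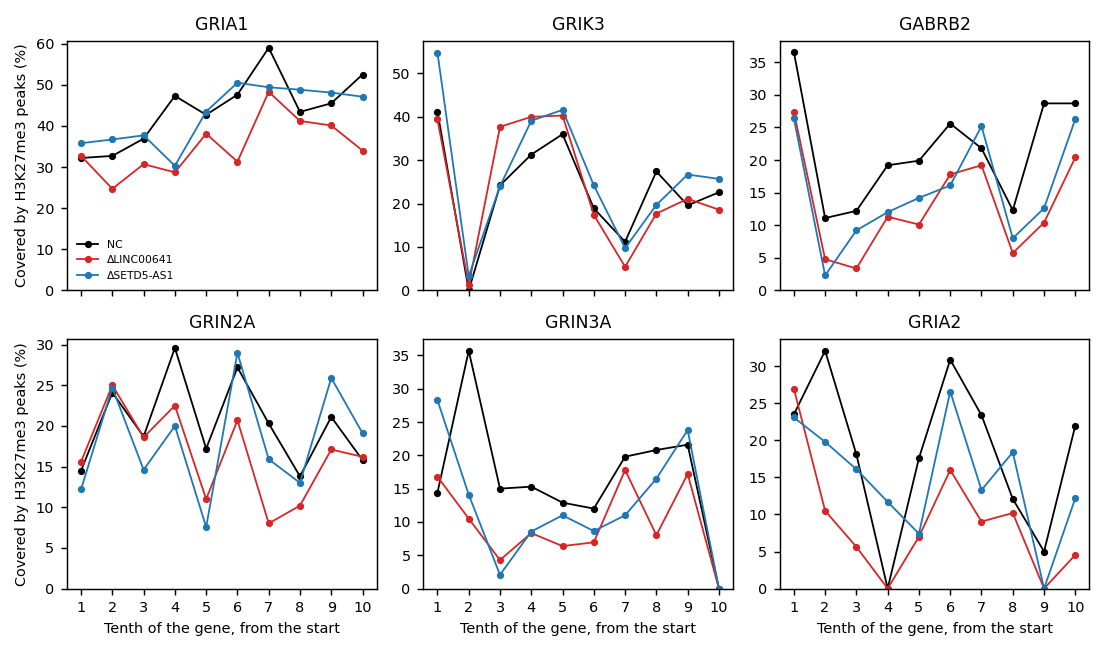
Percent of each of 10 equal segments of the gene, counted from the 5′ end of the annotated gene, covered by H3K27me3 peaks in NC, ΔLINC00641 and ΔSETD5-AS1, for 6 genes with at least 10% covered in NC. In GABRB2 the ΔLINC00641 line lies below NC in every segment, while in GRIK3 the lines cross and segment 2 is nearly free of peaks in the 3 lists.

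Over all genes, base composition moved with the coverage. Among all autosomal genes with at least 10% covered in NC, the lowest of 5 classes of GC content of the span (33.3 to 40.9%) had a median coverage ratio of 0.646 in ΔLINC00641 and 0.766 in ΔSETD5-AS1, while the highest class had 1.01 and 0.927. Of the 16 genes described here, 5 were in the lowest class, with medians of 0.578 and 0.705, and 3 were in the highest, with 0.705 and 0.859. From the second class to the fourth, which held 3, 2 and 3 of the genes, the medians were 0.811, 1.15 and 1.04 in ΔLINC00641. In ΔSETD5-AS1 they were 0.984, 0.646 and 1.12. With 2 to 5 genes in a class, no trend over the classes can be read from these medians. The part of base composition in the lower coverage of these genes was not tested.

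The sequence of the promoters was then described. The CpG ratio, the CG count over that given by the base composition, had a median of 0.663 at the 32 genes with an NC promoter peak and 0.62 at the 21 without, against 0.639 over all autosomal genes. The core of the RE1 element, to which the repressor REST binds, was also searched, as AGCACC, any 2 bases and GGACAG on both strands. REST is known for keeping neuronal genes silent outside neurons. The core was found within 1 kb of the start at 4 of the 32 genes with an NC promoter peak and at 0 of the 21 without. Over all autosomal genes it was found at 83 of 19222 (0.432%), at 46 of 1363 with the peak (3.37%) and at 37 of 17859 without (0.207%). The 4 sites are shown with 8 bases on each side, both parts of the core in capitals and read in the direction of the core. They lie at chr9:140033707-140033736 on the plus strand, at chr4:158141536-158141565 on the minus strand, at chr1:154540425-154540454 on the plus strand and at chr5:63259091-63259120 on the plus strand.
GRIN1: cccgcttcAGCACCgcGGACAGcgccggcc
GRIA2: ggcctttcAGCACCgaGGACAGcgcctcgc
CHRNB2: gcggcttcAGCACCacGGACAGcgccccac
HTR1A: ctgggttcAGCACCtgGGACAGttctaagc
The cores lie 116 bases after the start in GRIN1, 186 bases after it in CHRNB2, and at positions −329 in GRIA2 and −834 in HTR1A, counted from the start. Only that of CHRNB2 was inside an H3K27me3 peak, in each of the 3 lists. A match to these letters is a description, and binding of REST was not measured.

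H3K9me3 was rarer at the starts. In NC 5 of the 53 genes carried an H3K9me3 promoter peak (9.43%, Wilson 4.1 to 20.3%), against 5.08% of all autosomal genes, and in ΔLINC00662 7 genes did (13.2%, 6.55 to 24.8%), against 4.1%. These intervals cover counting error only, and the genes were chosen with earlier results known, so that they are no test against the background. When peaks under a −log10 q of 5 were left out, 1 of the 53 genes, HTR1A, carried one in ΔLINC00662. This was so of 1.63% of all autosomal genes, so that the share no longer stood clearly above the background. The 5 genes were GRIN2B, GRM6, KCNA3, HTR1A and HTR1B, and each kept a promoter peak in ΔLINC00662, where 56.3% of all autosomal genes with one in NC did. Of the 5, 3 had a −log10 q of 5 or more in NC, and all 3 had a peak in ΔLINC00662, where 68.9% of all autosomal genes with such a peak did. With this limit on both lists 0 of 3 did, against 42.5%. KCNA3 had 57 fragments (43.2 to 73.9) in NC and 33 (22.7 to 46.3) in ΔLINC00662, HTR1B had 41 and 32, GRM6 had 32 and 24, GRIN2B had 31 and 18 and HTR1A had 24 and 29. The fragments were lower in ΔLINC00662 at 4 of the 5, with overlapping intervals (3.82% of all autosomal genes with both peaks lay lower with intervals apart), and the genome-wide level of that list was also lower, 3.5 against 4.29 fragments. Promoter peaks were new in ΔLINC00662 at GRIA2, with 32 fragments (21.9 to 45.2) at a fold enrichment of 2.23, and at GLRA1, with 27 (17.8 to 39.3) at 2.43. That made 2 of 48 genes without one in NC, against 1.31% of all. The GLRA1 window (chr5:151304413-151304612, minus strand), which ends at the base before the start, held 7 CG dinucleotides, in capitals.
GLRA1: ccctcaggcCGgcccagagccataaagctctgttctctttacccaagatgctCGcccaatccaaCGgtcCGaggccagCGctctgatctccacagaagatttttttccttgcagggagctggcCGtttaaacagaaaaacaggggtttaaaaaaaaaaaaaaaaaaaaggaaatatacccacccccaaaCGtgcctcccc

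Across the gene bodies 33 of the 53 genes had at least 1 H3K9me3 peak in NC and 33 in ΔLINC00662, against 38.1% and 32.4% of all autosomal genes. In both lists 29 of the genes had one, a share not computed over all genes. Of the 26 genes in the longest class, 24 had one in NC, where 82.6% of all genes of that class did. At least 10% was covered at 3 genes in NC (3.4% of all) and at 2 in ΔLINC00662 (2.53% of all), and 2 of the 3 were lower in ΔLINC00662, against 89.0% of all such genes. GRM6 (chr5:178404588-178423207), the receptor of retinal bipolar cells, stood apart, with 53.2% of span and flanks covered in NC and 50.7% in ΔLINC00662 in surroundings covered over 20% in NC and 12.7% in ΔLINC00662. HTR1A was at 14.5 and 15.2%, GLRA1 at 6.14 and 4.42% and HTR1B at 11.7 and 2.36%. In total the peaks covered 123 kb (1.07%) of the spans and flanks in NC and 86.3 kb (0.749%) in ΔLINC00662. Coverage was lower in ΔLINC00662 at 27 of 37 genes covered in either list, against 78.6% of all.

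Both marks were present at the promoter in NC at GRIN2B, HTR1A and HTR1B, 3 of the 53 genes against 0.796% of all autosomal genes. Of the 32 genes with the H3K27me3 peak these are 3, where 11.2% of all autosomal genes with that peak had both. At HTR1B the peaks shared 516 bp and their summits were 34 bp apart. At HTR1A they shared 660 bp, and at GRIN2B they did not overlap and their summits were 988 bp apart. Of the 53 genes, 5 had no peak of either mark in any of the 5 lists, namely GRIN2C, CHRNA5, CHRNB3, HTR2A and DRD1. This share was not computed over all autosomal genes.

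The families have other members outside the list. Of 33 autosomal relatives, 11 (33.3%, Wilson 19.8 to 50.4%) carried an H3K27me3 promoter peak in NC. This was so of 60.4% of the 53 genes and 7.09% of all autosomal genes. In ΔLINC00641 10 of the relatives carried one (7.5% of all autosomal genes) and in ΔSETD5-AS1 9 of them did (6.87% of all). The strongest of them in NC included HTR5A with 46 fragments and 68.1% of its span covered and GABRD with 44 fragments. On the X chromosome GRIA3 had 51 fragments and a coverage of 51.0%.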

How the data were processed

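H3K27me3 and H3K9me3 ChIP-seq libraries came from HEK293T cells, and samples were grouped by their titles (10 groups of 3, of which 5 were input). According to the study's methods and the submitters' processing notes, Cutadapt 3.3 served for adapter removal, Bowtie2 2.4.2 for alignment to hg19 and GATK MarkDuplicates for duplicates. The authors then merged the replicates and ran MACS2 2.2.7.1 on read pairs to call peaks. Each of the 5 files is a peak list. The authors deposited the fold enrichment, a linear ratio of summit fragments to local input with a pseudocount of 1, the −log10 p-value, and a score per peak that is its −log10 q-value.

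From these, the whole number of fragments at each summit was recovered, since fold and p-value share it (100% of peaks, tolerance 0.1% on −log10 p). Summit fragments carry exact Poisson 95% intervals and shares carry Wilson 95% intervals, which cover counting error only. Genes were taken from GENCODE 44 lifted to GRCh37, whose chromosomes 1 to 22 and X have the coordinates of hg19, and no peak reached past a chromosome end. A promoter was 1 kb on each side of the canonical start, and a span was the gene with 5 kb on each side. Where several peaks touched a promoter, the one with the largest −log10 q was used. An overlap was at least 1 bp. Sequences were read from GRCh37, leaving out exons for the windows of 200 bases.

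The genes and lists were chosen with earlier results of these data known. Named with values were the 12 strongest promoter peaks in NC per mark, every lost or new promoter peak, and the genes with the highest or most changed coverage. In addition, the presence or absence of a promoter peak was given for every gene, and further values were added after they were seen. The coverage classes of at least 10%, the GC classes and the surroundings were set late too, with the lists in view. The settings tried instead were a −log10 q from 5 upward, equal peak numbers, merging within 1 kb, local input at most 5 times the genome-wide level, a promoter of 2 kb on each side, any protein-coding start, the span without flanks and an overlap of 50%. The work used scipy 1.17.1, pandas 2.3.3, pysam 0.24.0, matplotlib 3.10.9 and numpy 2.4.6 under Python 3.11.15, and the functions were tested on simulated data.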

Additional observations from a re-analysis of the deposited data

How the results depend on the processing

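The 19 results (counts of genes, median coverage differences and median log2 ratios of promoter fold enrichment) were recomputed under up to 8 settings, which gave 108 values. Of these, 98 stayed in the same direction and within 1.5 times the count or within the spread over genes, 7 moved and 3 reversed. All 7 that moved did so at a −log10 q of at least 5, which keeps fewer peaks. In ΔSETD5-AS1 the genes with an H3K27me3 promoter peak were then 20, those with any peak 27 and those that kept the NC promoter peak 19 (75.2% of all autosomal genes with one kept it). For H3K9me3, promoter peaks were at 3 genes in NC and at 1 in ΔLINC00662 (1.63% of all), any peak was at 20 genes in ΔLINC00662, and 0 genes kept a promoter peak (42.5% of all). Over all autosomal genes the promoter peaks in NC also fell at this limit, from 1363 to 843 genes for H3K27me3 and from 977 to 518 for H3K9me3. The other shares over all genes were not computed at this limit. The median log2 ratio for ΔLINC00662, 0.08 over 5 genes, became −0.1445 with peaks within 1 kb merged and −0.0477 with a promoter of 2 kb on each side or with any protein-coding start. The cause was not tested. The log2 ratios were added after the data had been seen.

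No paired analysis was possible because each group is a single list of merged replicates, and for the same reason leaving out a replicate was not run. With a median of 18 to 22 fragments at a summit, absence of a weak peak from a list does not show that the mark was absent, and fold enrichment between lists depends on depth and local input. Values without X-linked genes were used as background, and with chromosome X the share of genes with an H3K27me3 promoter peak in NC was 8.12%.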

Other observations

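Other genes of the same pathways carried H3K27me3 at their starts to differing extents. Of 21 other autosomal voltage-gated potassium channels, 10 (47.6%, Wilson 28.3 to 67.6%) had a promoter peak in NC, against 7.09% of all autosomal genes. These 10 kept it after either H3K27me3 knockdown, against 84.0% and 79.9% of all autosomal genes with the peak in NC. KCNH8 held 44 fragments at its summit in NC, KCND3 52 and KCNH3 53. KCNQ3, whose product carries the M current, held 57 fragments and was covered over 49.7% of its span and flanks. Of 26 autosomal auxiliary and scaffold genes of these receptors and channels, 5 (19.2%, 8.51 to 37.9%) had a promoter peak with the control ASO, against 7.09% of all autosomal genes. After ΔLINC00641 6 did (7.5% of all) and after ΔSETD5-AS1 5 did (6.87% of all). Those in NC were led by CACNG4 (70 fragments), CACNG2 (42) and CACNG7 (47), which encode partner proteins of AMPA receptors, and by CACNG3 (32). The remaining one, HOMER3, held 21 fragments. These lists were chosen with earlier results known, and their shares were not tested against those of other genes.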
